A study of Sus scrofa with 16 samples.

Results

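Proteins that a cell secretes or places in its membranes enter the endoplasmic reticulum (ER) while they are made, and 35 genes for the machinery of this entry and of the folding and glycosylation that follow were examined in the pituitary of pigs with low and high feed conversion. The members were chosen by their deposited gene symbols, namely the signal recognition particle genes, SEC61, SEC62 and SEC63, the translocon-associated SSR genes, the signal peptidase genes, the oligosaccharyltransferase genes RPN1, RPN2, STT3A, STT3B, DDOST and DAD1, the chaperone and J protein genes, the lectins CALR and CANX, and P4HB with the other protein disulfide isomerase genes. These were 35 of the 25880 genes counted, and 35 of the 13667 genes with at least 10 counts in 8 or more pigs. In addition, 5 genes of the same kinds had no deposited symbol and took their names from a table of gene IDs (HSP90B1, DNAJB11, SPCS2, SRP9 and SRP19). Their values are given by name but are not part of any count of the 35. PDIA2 had 0 to 27 counts per pig, reached 10 counts in 4 pigs and stayed under the minimum.

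RNA of the pituitary gland was sequenced in 16 Złotnicka White gilts, females of a native breed, all labelled as day 180 and with no treatment named. The LFC group held 8 gilts with low feed conversion and the HFC group 8 gilts with high feed conversion, the amount of feed used per gain in weight. These unrelated animals of several farms shared feed and housing at 1 test station, and the groups differ in a trait by which the pigs were sorted and not in a treatment. The authors report that the test ended at a set body weight rather than on a set day. In their measurements the HFC gilts of this breed spent more days in the test, gained less per day and were fatter. These differences go with the group and cannot be told apart from feed conversion here. The deposited counts per gene were raw whole numbers, and the library kit did not mark the strand.

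The counts of a pig summed to 6010629 at the lowest and 11794256 at the highest. Expression is given as CPM, the counts relative to the TMM-scaled library size, as lowest, median and highest value of the 8 pigs of a group. CPM is not divided by transcript length, so levels are compared between pigs and not between genes. A positive log2 fold change is higher expression in the HFC group. The lowest count of any member in any pig was 149.

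A signal sequence at the start of a new protein is bound by the signal recognition particle, which brings the ribosome to the Sec61 channel. Inside the ER signal peptidase removes the signal, oligosaccharyltransferase attaches a sugar tree to asparagine, and chaperones, lectins and disulfide isomerases fold the chain. Hormone-secreting cells of the anterior pituitary depend on this route, because prolactin, growth hormone, pro-opiomelanocortin and the glycoprotein hormones all pass through it. When unfolded proteins build up, the sensors ATF6, IRE1 and PERK raise the transcription of many of these genes, HSPA5 among them.

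No member differed between the groups when an adjusted p up to 0.05 was asked together with a 1.3-fold change, and edgeR called none of the genes tested (0.0% of 13621). The authors, with DESeq2 at these thresholds, list HYOU1 and SSR4 among the differing genes of this breed. The cause of this disagreement was not tested. The smallest Benjamini-Hochberg adjusted p of a member was 0.413 in the quasi-likelihood F test of edgeR. At a nominal p (before adjustment) of at most 0.05 there were 4 members, HYOU1, PDIA6, DDOST and PDIA4, all with the higher expression in the HFC group. Of all genes tested 7.03% were that far toward the HFC group and 4.41% toward the LFC group, together 11.4%, which was also the share of the 35 members. A log2 fold change above 0 was found at 21 of the 35 members (60.0%), against 47.9% of all genes. The median log2 fold change of the members was 0.02, against -0.01 for all genes. At each of the 35 members the values of the groups overlapped, and the share of all genes tested that did so is not given here.

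DESeq2 placed 7 members at a nominal p of at most 0.05, again all toward the HFC group. Of its 18963 genes, 6.1% were that far toward the HFC group and 3.88% toward the LFC group. These had no expression filter, unlike the genes of edgeR, so the 2 sets of shares are not over the same genes. Its smallest adjusted p for a member was 0.166, so that it called no member either, while it called 29 of 18963 genes (0.153%) by the same rule. With total library size as the only scaling, 4 members were at this p toward the HFC group and 2 toward the LFC group, and of all genes 639 were that far toward the HFC group and 750 toward the LFC group, against 958 and 601 with TMM scaling.

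**Figure D1:**
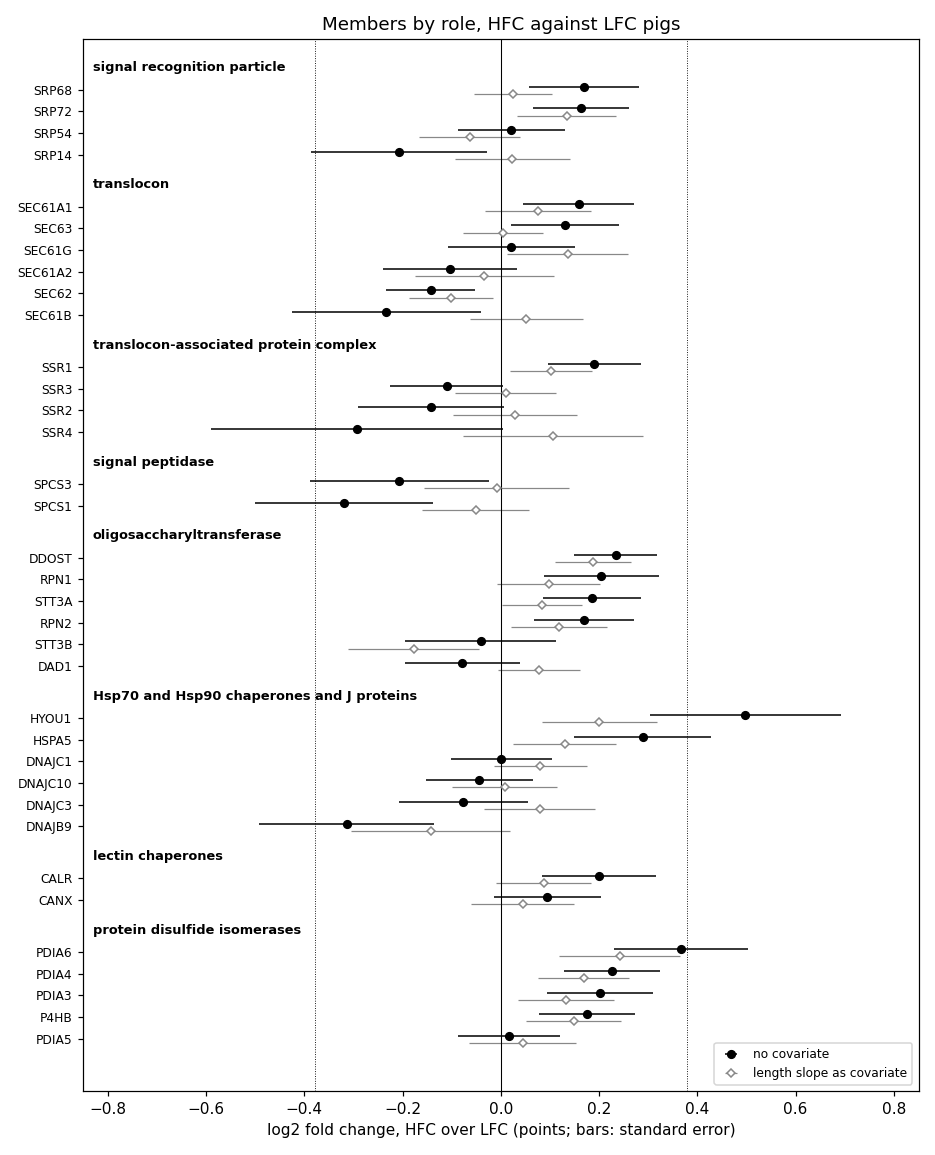
Log2 fold change (HFC over LFC, x axis) of the 35 members, grouped by role, with bars of 1 standard error. Black points are the fit without a covariate and hollow diamonds the fit with each pig's length slope, the dotted lines mark a fold change of 1.3, and all 5 disulfide isomerases lie above 0 and both signal peptidase genes below 0 in both fits.

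All 5 protein disulfide isomerase genes among the members, P4HB and the PDIA genes, had the higher expression in the HFC group. Their median log2 fold change was 0.20, with PDIA5 at only 0.02. Relatives outside the members went both ways, such as TMX1 (-0.27) and TXNDC5 (0.13). Toward the HFC group were also both lectin chaperones (median 0.15), 4 of the 6 oligosaccharyltransferase genes (0.18) and 3 of the 4 signal recognition particle genes (0.09). Both signal peptidase genes were toward the LFC group (-0.26), and so were 3 of the 4 translocon-associated genes (-0.13). The 6 translocon genes were split evenly (-0.04), and the 6 chaperone and J protein genes as well (-0.02). These are counts of direction, and no test compared the roles. They changed when each pig's length slope, its slope of log2 CPM on the log2 span of genes in the genome, was added as a covariate. With it 4 of 4 translocon-associated genes, 4 of 6 translocon genes, 5 of 6 oligosaccharyltransferase genes and 5 of 6 chaperone and J protein genes were toward the HFC group, and both signal peptidase genes stayed toward the LFC group (median -0.03).

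The signal recognition particle is an RNA with bound proteins. SRP54, the subunit that holds the signal sequence, had medians of 63.7 CPM in the LFC group and 61.2 CPM in the HFC group, with a log2 fold change of 0.02 ± 0.11 (SE). SRP68 (median 110.2 CPM in the LFC and 118 CPM in the HFC group) and SRP72 (66.4 and 67.6 CPM), which form a pair on the RNA, had log2 fold changes of 0.17 and 0.16. SRP14 (200.3 and 171 CPM), of the domain that slows translation, had a log2 fold change of -0.21. Its partner SRP9, named from the gene table, had 15.5, 17.5 and 29.8 CPM in the LFC group and 13.4, 15.5 and 23.5 CPM in the HFC group, or a log2 fold change of -0.31 (nominal p of 0.0561). SRP19 (179 and 147 CPM), also from the gene table, had -0.26. With the length slope as covariate SRP14 was at 0.02, SRP9 at -0.13 and SRP19 at -0.08.

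The Sec61 channel itself is built of an alpha, a beta and a gamma subunit. SEC61A1 (chromosome 13, 72254462 to 72270336), the pore-forming alpha subunit, had 145, 204 and 232 CPM in the LFC group and 171, 202 and 257 CPM in the HFC group. Its log2 fold change was 0.16 ± 0.11 (SE) with an nominal p of 0.179. The HFC median was no higher than the LFC median, and at the upper end 3 HFC pigs were above every LFC pig. SEC61A2, its paralog, had medians of 51.6 and 46.2 CPM and a log2 fold change of -0.10, and reads shared by the paralogs may have been counted at either.

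SEC61B (chromosome 1, 240985158 to 240993455), the beta subunit, had 117, 152 and 263 CPM in the LFC group and 101, 127 and 242 CPM in the HFC group. The log2 fold change was -0.23 ± 0.19 (SE) with an nominal p of 0.241, and no HFC pig was above the highest LFC pig. SEC61G, the gamma subunit (chromosome 9, 139128296 to 139135405), had 41.0, 51.4 and 65.4 CPM in the LFC group and 37.5, 54.2 and 67.6 CPM in the HFC group. With a log2 fold change of 0.02 ± 0.13 (SE) and an nominal p of 0.87, the groups covered almost the same range. The signs of the 3 channel subunits were not the same here, but all 3 were positive with the length slope as covariate (SEC61A1 0.08, SEC61B 0.05, SEC61G 0.14).

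SEC62 and SEC63 help proteins that enter after their synthesis is complete. SEC62 (chromosome 13, 108660486 to 108692242) had 196, 217 and 262 CPM in the LFC group and 162, 207 and 218 CPM in the HFC group, or a log2 fold change of -0.14 ± 0.09 (SE) with an nominal p of 0.128. It had the third-smallest p among members on the LFC side, and 6 of the 8 HFC pigs were below the LFC median. SEC63 (155 and 167 CPM), which carries a J domain that calls on HSPA5, had a log2 fold change of 0.13.

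The translocon-associated protein complex sits beside the channel and assists the insertion of some chains. SSR1 had 109.9, 121 and 151 CPM in the LFC group and 118, 144 and 168 CPM in the HFC group, with a log2 fold change of 0.19 ± 0.10 (SE) and an nominal p of 0.0612. SSR2 (491 and 466 CPM) had -0.14 and SSR3 (109 and 105 CPM) -0.11, which became 0.03 and 0.0099 with the length slope as covariate. SSR4 (chromosome X, 124537540 to 124541628) had 312, 526 and 1249 CPM in the LFC group and 317, 396 and 1175 CPM in the HFC group. Its log2 fold change of -0.29 had a standard error of 0.30 (nominal p of 0.339). A single pig of each group, LFC replicate 4 and HFC replicate 5, stood far above the others, and leaving out 1 pig at a time gave log2 fold changes from -0.56 to -0.06. The SSR4 model overlaps IDH3G, and without strand the reads of the shared bases may belong to either gene.

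Of the signal peptidase genes, SPCS1 (chromosome 13, 34839384 to 34841606) had the lowest log2 fold change of all members. It had 93.2, 115 and 199.7 CPM in the LFC group and 77.6, 98.3 and 166 CPM in the HFC group, or a log2 fold change of -0.32 ± 0.18 (SE) with an nominal p of 0.0939. In 7 of the 8 HFC pigs SPCS1 was below the LFC median, and the exception was HFC replicate 5. SPCS3 (296 and 249 CPM) had -0.21 and SPCS2 (225 and 189 CPM), named from the gene table, had -0.17, so that the 3 noncatalytic subunits had 1 direction. The models of SPCS1 and SPCS3 overlap other genes (NEK4 and GLT8D1, and ASB5).

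Oligosaccharyltransferase moves the finished sugar tree from its lipid carrier to the protein. DDOST (chromosome 6, 78885268 to 78895853), a structural subunit, had 178, 192 and 223 CPM in the LFC group and 189.9, 231 and 256 CPM in the HFC group. Its log2 fold change of 0.23 ± 0.08 (SE) had the smallest nominal p of the members, 0.0123. All but 1 of the HFC pigs were above the LFC median, 4 were above every LFC pig, and no LFC pig reached the HFC median. RPN1 (chromosome 13, 71884282 to 71934746), which holds substrates near the enzyme, had 271, 309 and 375 CPM in the LFC group and 287, 354 and 451 CPM in the HFC group. The log2 fold change was 0.20 ± 0.12 (SE) with an nominal p of 0.0986, and 4 HFC pigs were above every LFC pig.

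RPN2 (385 and 430.5 CPM) had a log2 fold change of 0.17. Of the catalytic subunits, STT3A (122 and 141 CPM), which works beside the channel as chains enter, had 0.19 ± 0.10 (SE, nominal p of 0.0772). STT3B (209 and 230.1 CPM), which modifies skipped sites later, had -0.04 ± 0.15 (SE), though its median was higher in the HFC group. No test of the difference between them was made. DAD1 (chromosome 7, 76431964 to 76457890), a small subunit that stabilizes the complex, had 115, 134 and 180.2 CPM in the LFC group and 111, 127 and 165 CPM in the HFC group. With -0.08 ± 0.12 (SE) and an nominal p of 0.513 it lay toward the LFC group, which turned with the length slope as covariate (0.08). The DDOST model overlaps PINK1 and the RPN1 model overlaps RAB7A.

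HSPA5 (chromosome 1, 265930042 to 265947997) encodes BiP, the Hsp70 chaperone of the ER, which pulls chains inward, holds them for folding and keeps the stress sensors silent. It had 684, 1003 and 1269.8 CPM in the LFC group and 906, 1255 and 1487 CPM in the HFC group. Its log2 fold change was 0.29 ± 0.14 (SE) with an nominal p of 0.0537 and a Benjamini-Hochberg adjusted p of 0.433 by edgeR. Among the HFC pigs only replicate 5 was below the LFC median and 4 were above every LFC pig, while LFC replicate 8 was above the HFC median.

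HYOU1 (chromosome 9, 46262859 to 46276995), a large Hsp70 relative that exchanges the nucleotide of BiP, had the highest log2 fold change of the members. In the LFC group it had 178, 278 and 412 CPM and in the HFC group 203, 418 and 527 CPM, a log2 fold change of 0.50 ± 0.19 (SE) with an nominal p of 0.0195. No LFC pig reached the HFC median, and HFC replicate 5 lay near the low end of the LFC group. HSP90B1 (chromosome 5, 80512208 to 80520068), which encodes the ER Hsp90 GRP94 and took its name from the gene table, had 446, 529.7 and 705 CPM in the LFC group and 504, 644 and 819 CPM in the HFC group. Its log2 fold change was 0.24 ± 0.13 (SE, nominal p of 0.0698), and 1 LFC pig was above the HFC median.

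J proteins pass clients to BiP and start its ATPase. DNAJB9 (ERdj4, chromosome 18, 36578516 to 36584732), which recruits BiP to the sensor IRE1, was on the opposite side from HSPA5. It had 141, 187 and 287 CPM in the LFC group and 113, 156 and 238 CPM in the HFC group, with a log2 fold change of -0.31 ± 0.18 (SE) and an nominal p of 0.0959. HFC replicate 5 again stood apart from its group, as the highest of the 8, and 6 HFC pigs were below the LFC median. DNAJC3 (70.9 and 72.7 CPM) had -0.08, DNAJC10 (194 and 197 CPM), a J protein that also reduces disulfides, had -0.04, and DNAJC1 (25.0 and 23.9 CPM) and DNAJB11 (44.6 and 42.1 CPM, from the gene table) both had 0.00.

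Calreticulin and calnexin hold glycoproteins by a trimmed sugar while they fold. CALR (chromosome 2, 66097914 to 66102102), the soluble lectin, had 649.7, 787 and 933 CPM in the LFC group and 706, 899.8 and 1100.4 CPM in the HFC group. The log2 fold change was 0.20 ± 0.12 (SE) with an nominal p of 0.104, and 4 HFC pigs were above every LFC pig. CANX (chromosome 2, 78877603 to 78915834), the membrane-bound lectin, had 411, 497 and 624 CPM in the LFC group and 434, 498 and 669.6 CPM in the HFC group. With 0.09 ± 0.11 (SE) and an nominal p of 0.395 its medians were nearly equal.

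Protein disulfide isomerases form and rearrange disulfide bonds, which prolactin, growth hormone and the glycoprotein hormones all contain. PDIA6 (chromosome 3, 125751910 to 125776955) had 295, 341 and 441 CPM in the LFC group and 337, 476 and 602 CPM in the HFC group, or a log2 fold change of 0.37 ± 0.14 (SE) with an nominal p of 0.0153. PDIA4 (chromosome 9, 109252011 to 109280324) had 213, 245 and 284 CPM in the LFC group and 241, 288 and 361 CPM in the HFC group, or a log2 fold change of 0.23 ± 0.10 (SE) with an nominal p of 0.0324. At both genes 7 of the 8 HFC pigs were above the LFC median, 4 were above every LFC pig, and no LFC pig reached the HFC median. P4HB (chromosome 12, 1121321 to 1131290), the founding member of the family, had 269, 318 and 363 CPM in the LFC group and 299.6, 358 and 409 CPM in the HFC group. Its log2 fold change was 0.18 ± 0.10 (SE, nominal p of 0.0892). PDIA3 (541 and 651 CPM), which works with the lectins on glycoproteins, had 0.20 ± 0.11 (SE, nominal p of 0.0759), and PDIA5 (50.1 and 58.1 CPM) had 0.02.

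**Figure D2:**
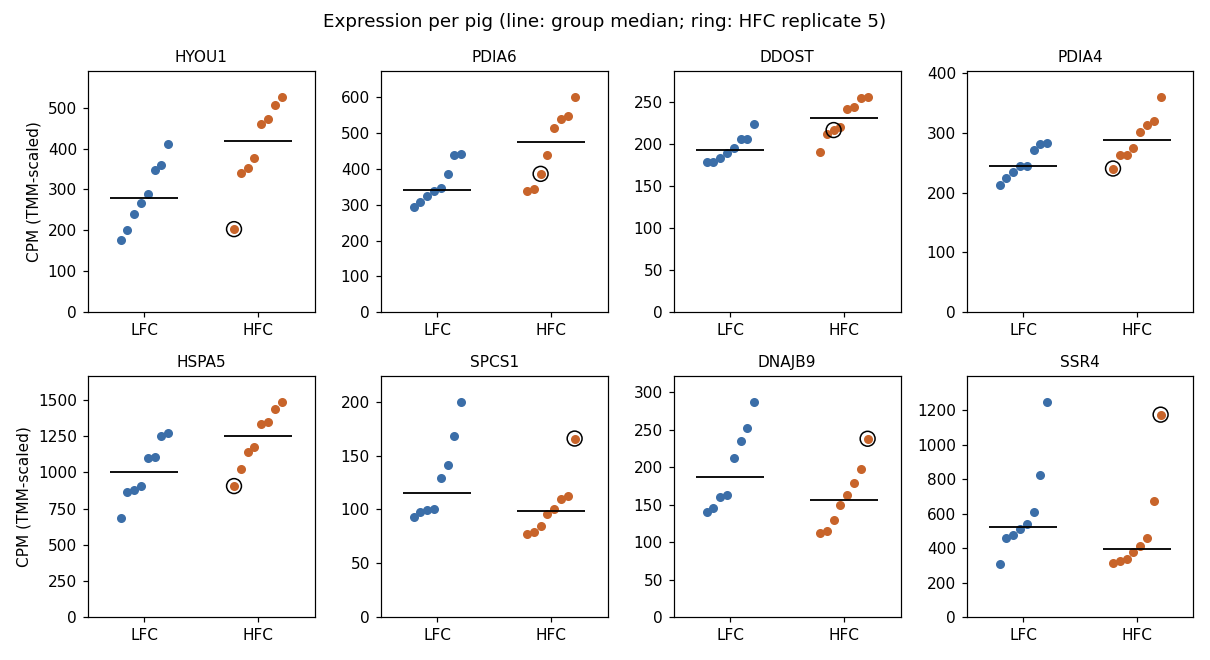
CPM of 8 members in each pig (y axis, from 0), with a line at the median of each group of 8 and a ring around HFC replicate 5. At HYOU1 and HSPA5 this pig has the lowest value of the HFC group (203 and 906 CPM), and at SPCS1, DNAJB9 and SSR4 the highest (166, 238 and 1175 CPM).

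The other genes of the pathway were taken from 6 lists with 114 names, of which 109 genes were tested. None was past an adjusted p of 0.05, 51 of the 109 had a log2 fold change above 0, and 6 reached an nominal p of 0.05, all of them toward the HFC group, against the 7.03% of all genes in that direction. Among other subunits and receptors of protein entry, 4 of 17 were toward the HFC group, with BAG6, which escorts tail-anchored proteins, at 0.26 (nominal p of 0.0412). In the list of other oligosaccharyltransferase subunits and precursor assembly 9 of 23 were toward the HFC group and 0 had such a p, with DPAGT1, the first enzyme of the sugar tree, highest in value beside ALG13 (both 0.24). For glycan trimming and quality control it was 10 of 13, with UGGT1, the glucosyltransferase that marks unfolded glycoproteins, at 0.35 (46.2 CPM in the LFC and 65.9 CPM in the HFC group by median, nominal p of 0.03). Oxidative folding and other folding helpers had 11 of 25 toward the HFC group and 0 with such a p, with log2 fold changes from -0.43 (FKBP7) to 0.37 (SDF2L1).

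In the list of sensors and factors of the unfolded protein response 7 of 15 genes were toward the HFC group. CREB3L1, an ER-bound transcription factor that is released by cleavage in secretory cells, had 27.5, 43.9 and 56.7 CPM in the LFC group and 37.2, 68.8 and 110.4 CPM in the HFC group, or a log2 fold change of 0.66 ± 0.19 (SE) with an nominal p of 0.00299 and a Benjamini-Hochberg adjusted p of 0.391 by edgeR. In 6 of the 8 HFC pigs it was above every LFC pig. Its relative CREB3L2 (medians 111 and 176 CPM) had 0.43 ± 0.16 (SE) with a nominal p of 0.0163. The authors count CREB3L1 and CREB3L2 among their differing genes. Of the 3 main sensor branches, XBP1, the target of IRE1, had a log2 fold change of -0.20, ATF4 and DDIT3, which act after PERK, had -0.20 and -0.28, and the sensors ATF6 and PERK (EIF2AK3) had 0.06 and -0.00, with nominal p from 0.083 to 0.964. DDIT3 was at a nominal p of 0.0151 with limma voom, 0.0414 with total library size scaling and 0.00843 without the 3 pigs of lowest length slope, on the LFC side in each (log2 fold change of DDIT3 from -0.29 to -0.25). With DESeq2, RLE or upper-quartile scaling, other filters or the replicate block, the nominal p of DDIT3 was between 0.0706 and 0.0923. With the length slope as covariate in edgeR its log2 fold change was -0.06, with a nominal p of 0.528. The IRE1 gene ERN1 was not analysed here.

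Of the genes that degrade unfolded proteins 10 of 16 were toward the HFC group. DERL3, a channel candidate of this route, had 3.88, 6.15 and 9.44 CPM in the LFC group and 6.83, 9.25 and 19.8 CPM in the HFC group, or a log2 fold change of 0.64 ± 0.22 (SE) with an nominal p of 0.0103. All 8 HFC pigs were above the LFC median. SYVN1, the ubiquitin ligase of the route, had medians of 38.9 and 58.5 CPM and a log2 fold change of 0.55 ± 0.17 (SE, nominal p of 0.00463). Its value is uncertain, because its model overlaps MRPL49 and a second model named SYVN1.

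Across the 16 pigs the expression of HSPA5 was compared with that of 12 genes, on log2(CPM + 1). HSPA5 went with CALR (Pearson's r of 0.963, Spearman's rho of 0.982), HYOU1 (0.952 and 0.947), HSP90B1 (0.889 and 0.915), RPN1 (0.883 and 0.906) and PDIA4 (0.849 and 0.924). The permutation p of r was 4e-05 for PDIA4 and 1e-05 for the other 4, the lowest value possible with 100000 resamples, or 9.6e-05 and 3e-05 after adjustment over the 12 relations. For rho it was 1e-05 at all 5, adjusted 2.4e-05. Within the LFC group r was between 0.759 and 0.977 (exact permutation p from 2.48e-04 to 0.0346), and within the HFC group between 0.855 and 0.982 (exact permutation p from 1.49e-04 to 0.00945). Without HFC replicate 8 and LFC replicate 6, the pigs farthest from the median of HSPA5, r was 0.869 to 0.967. Over all 16 pigs these 5 genes thus ranked the pigs much as HSPA5 did, while rho was not computed within the groups. The points share libraries and scaling.

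For the other 7 genes the relation was weaker. DNAJB9 had an r of -0.199 (rho -0.118) and DNAJB11, a co-chaperone of BiP, an r of 0.134 (rho 0.209), with adjusted permutation p of 0.502 and 0.622 for r and 0.666 and 0.475 for rho. SEC61B had an r of -0.491 and a rho of -0.321 (permutation p of 0.0535 and 0.227, adjusted 0.0916 and 0.303), while the correlation of HSPA5 and SEC61B became -0.769 with total library size scaling (adjusted permutation p of 0.00132). Among the hormone genes, PRL had an r of 0.564 and a rho of 0.568 with HSPA5 (permutation p of 0.0231 and 0.0243, adjusted 0.0463 and 0.0486). Within the LFC group r was 0.265 and within the HFC group 0.421 (exact permutation p of 0.524 and 0.294). Without the 2 pigs farthest from the median r was 0.518 (permutation p of 0.0603). Both r within a group were positive and below the pooled r. With so few pigs in a group these tests cannot decide whether the relation of HSPA5 and PRL holds within the groups. For GH1, POMC and CGA r was 0.316, -0.330 and -0.288 and rho 0.424, -0.391 and -0.282, with adjusted permutation p from 0.18 to 0.348.

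**Figure D3:**
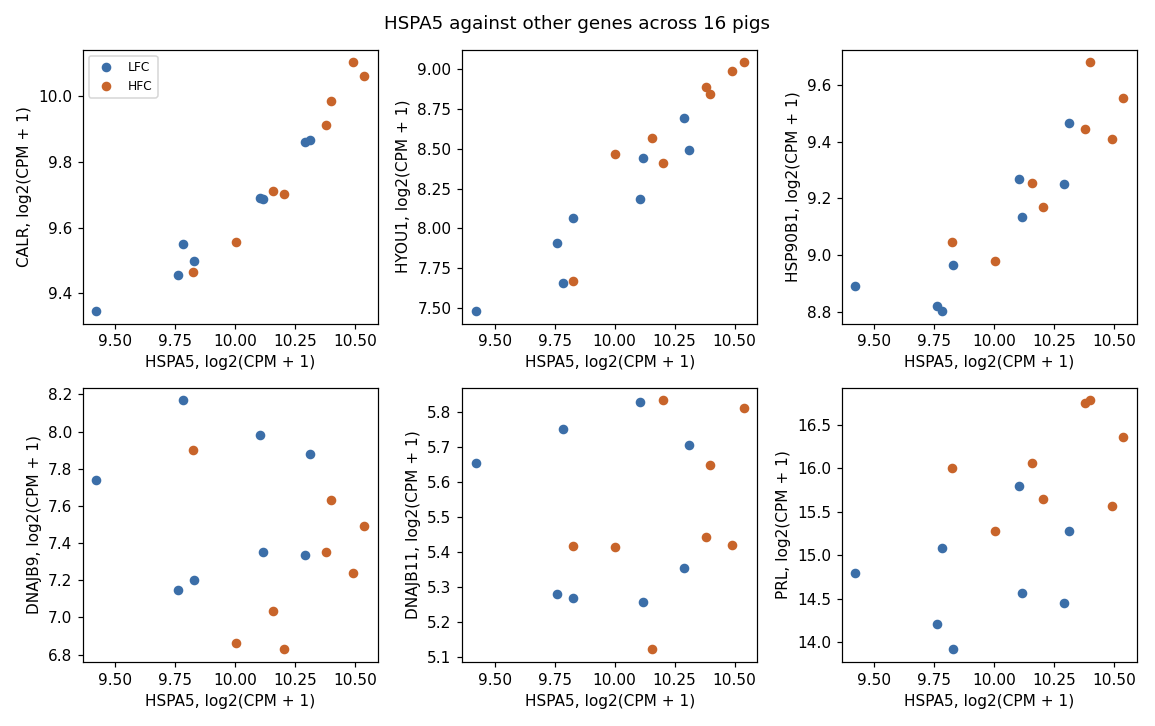
HSPA5 (x axis) against CALR, HYOU1, HSP90B1, DNAJB9, DNAJB11 and PRL (y axes) in 16 pigs, all as log2(CPM + 1), LFC in blue and HFC in orange. The points of both groups fall on 1 rising band for CALR (r of 0.963) and HYOU1 (0.952), scatter widely for DNAJB9 (-0.199) and DNAJB11 (0.134), and for PRL the HFC pigs lie above most LFC pigs at a like level of HSPA5.

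Cell types could not be separated in this bulk tissue, where fewer cells of a type and less RNA per cell cannot be told apart. PRL, the marker of lactotrophs, ran from 15501 to 56707 CPM in the LFC group and from 39895 to 112503 CPM in the HFC group. The summed 3 corticotroph markers, POMC with TBX19 and CRHR1, ran from 15641 to 83437 CPM and from 8695 to 25837 CPM, and all 3 were toward the LFC group. Sums of the other lists overlapped broadly, with 27856 to 64393 CPM against 23091 to 86012 CPM for 2 somatotroph markers, 19837 to 61916 against 13438 to 44410 for 5 of gonadotrophs and thyrotrophs, 331 to 585 against 318 to 512 for 5 pituitary factors, 342 to 577 against 345 to 564 for 2 of folliculostellate and stem cells, 135 to 5800 against 109 to 3181 for 5 of posterior lobe glia and myelin, and 7.74 to 169 against 0.327 to 135 for AVP and OXT, the latter at 0 counts in 1 pig. They were 227 to 360.2 against 205 to 482 for 6 endothelial markers, 187 to 386 against 277 to 643 for 5 of fibroblasts and pericytes, 228 to 355 against 127 to 413 for 8 of macrophages and leukocytes, and 277 to 1427 against 63.1 to 1045 for 2 of erythrocytes. Genes of these lists at an nominal p of at most 0.05 were PRL, 2 endothelial and 1 fibroblast marker toward the HFC group and 2 corticotroph, 1 erythrocyte and 1 gonadotroph and thyrotroph marker toward the LFC group. MOG and RAX had 0 counts in 1 pig each and SLC4A1 in 10, and LHB, GNRHR, PITX1, SOX2, S100B and HBA1 were not analysed here. PRL, GH1, POMC and CGA, which define pituitary tissue, were counted in every pig. The part of cell types in the values of the ER genes was not tested.

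The direction of the members went weakly with the span of their gene models. Across the 35 members the log2 fold change and the log2 span of the gene in the genome had an r of 0.244, against 0.286 across 10890 genes, as descriptions over genes that share the same pigs. The slope of log2 CPM on log2 span within a pig, called the length slope here, was -0.0356 ± 0.0461 (SD) in the LFC group and -0.000772 ± 0.0389 (SD) in the HFC group (exact two-sided permutation test over 12870 splits, p = 0.126, n = 8 per group). It was lowest in LFC replicates 6 and 4 and in HFC replicate 5, at -0.104, -0.102 and -0.0847, and between -0.0389 and 0.0481 in the other 13 pigs.

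For comparison with the length slope, 5 members were chosen after the data were seen. All 5 have spans under the member median of 26936 bases, from 2223 (SPCS1) to 17956 (HSPA5). The length slope was compared with each of them. Its r was 0.89 with HYOU1, 0.79 with HSPA5 and 0.551 with DDOST, and -0.871 with SPCS1 and -0.858 with SEC61B, with rho of 0.874, 0.765, 0.679, -0.762 and -0.697. The permutation p of r was 2e-05, 2.8e-04, 0.0264, 2e-05 and 3e-05 in this order, adjusted over the 5 relations to 5e-05, 3.5e-04, 0.0264, 5e-05 and 5e-05, and the adjusted p of rho was between 1.5e-04 and 0.0048. Without LFC replicates 4 and 6, the farthest from the median slope, r was 0.812, 0.645, 0.431, -0.75 and -0.745. For DDOST the permutation p was then 0.123. Over the 13 pigs without HFC replicate 5 as well, r was 0.707, 0.557, 0.621, -0.562 and -0.507, with adjusted permutation p from 0.0363 (HYOU1) to 0.0781 (SEC61B). Within the LFC group r was 0.955, 0.833, 0.506, -0.822 and -0.869 (exact permutation p of 2.98e-04, 0.0089, 0.205, 0.0121 and 0.00677), and within the HFC group 0.789, 0.615, 0.355, -0.881 and -0.824 (exact permutation p of 0.0434, 0.0995, 0.402, 0.0099 and 0.0239).

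**Figure D4:**
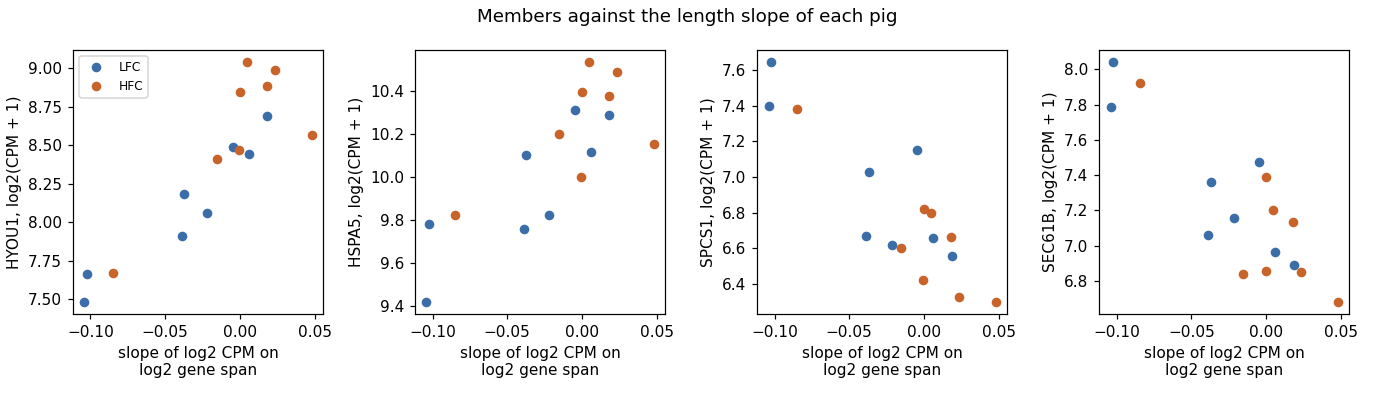
HYOU1, HSPA5, SPCS1 and SEC61B as log2(CPM + 1) (y axes) against each pig's slope of log2 CPM on log2 gene span (x axis) in 16 pigs, LFC in blue and HFC in orange. HYOU1 is lowest and SPCS1 and SEC61B are high in the pigs with the lowest slopes, LFC replicates 4 and 6 and HFC replicate 5, and HSPA5 is low in them (684 to 906 CPM) but also in LFC replicate 5 (867 CPM).

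With the length slope as a covariate in edgeR's test, the log2 fold change of HYOU1 was 0.20 ± 0.12 (SE), that of HSPA5 0.13 ± 0.11 (SE), that of PDIA6 0.24 ± 0.12 (SE) and that of DDOST 0.19 ± 0.08 (SE). DDOST was then the 1 member with an nominal p of at most 0.05 (0.0255), against 2.74% of all genes that far toward the HFC group and 2.06% toward the LFC group. The members on the HFC side were 28 of 35, against 50.0% of all genes, and the median log2 fold change of the members was 0.08. In this fit 9 of the 35 members changed side. SRP14 (0.02), SEC61B (0.05), SSR2 (0.03), SSR3 (0.0099), SSR4 (0.11), DAD1 (0.08), DNAJC3 (0.08) and DNAJC10 (0.0075) went to the HFC side and SRP54 (-0.06) to the LFC side. SPCS1 stood at -0.05 and DNAJB9 at -0.14. The smallest adjusted p of a member was 0.98 in this fit.

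HFC replicate 5 was the lowest or the highest HFC pig at 23 of the 35 members (65.7%), the lowest at 10 and the highest at 13. The next such shares were 42.9% for LFC replicate 4 and 40.0% for LFC replicate 8. These shares were counted over the members only, so whether they are particular to the members was not tested. HFC replicate 5 also had the fewest counts of the 16 pigs, 6010629. Without HFC replicate 5, 19 members had an nominal p of at most 0.05 (54.3%, against 25.7% of all genes), 14 of them toward the HFC group, where 13.8% of all genes were, and 5 toward the LFC group, where 11.8% were. The 14 were HYOU1 (log2 fold change 0.61), PDIA6 (0.42), HSPA5 (0.36), PDIA4 (0.28), RPN1 (0.27), DDOST (0.27), CALR (0.27), SSR1 (0.25), STT3A (0.24), PDIA3 (0.24), SRP68 (0.24), P4HB (0.22), RPN2 (0.22) and SRP72 (0.21). The 5 were SSR4 (-0.56), SPCS1 (-0.42), DNAJB9 (-0.39), SEC61B (-0.36) and SRP14 (-0.34). Still no member had an adjusted p of at most 0.05, the smallest in edgeR being 0.0931. The pig was singled out after its values were seen.

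Leaving out other pigs moved the count less. It was 9 without LFC replicate 8, 8 without LFC replicate 3, 7 without HFC replicate 6 and 3 to 6 without any 1 of the other 12. Without LFC replicates 8 and 3 these were 25.7% and 22.9% of the members. The share of all genes was then below the 11.4% found with all pigs, while without HFC replicate 5 it rose to 25.7%. The larger count without HFC replicate 5 was thus in part a rise over all genes. Whether the rest of it is particular to the members was not tested. LFC replicates 8 and 2 had the 2 highest values of HSPA5 in their group (1269.8 and 1252 CPM), near the HFC median of 1255 CPM.

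**Figure D5:**
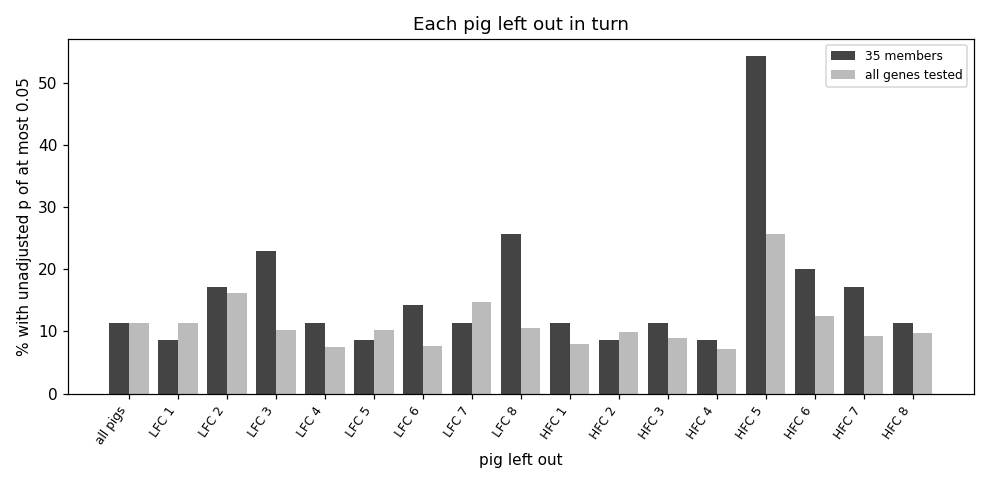
Percent of the 35 members (dark bars) and of all genes tested (light bars) with an nominal p of at most 0.05 (y axis, from 0), with all pigs and without 1 pig at a time (x axis). With all pigs both bars stand at 11.4%, and without HFC replicate 5 they stand at 54.3% and 25.7%.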

How the data were processed

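The authors sequenced pituitary RNA of 16 Złotnicka White gilts from libraries without strand, cleaned and aligned the reads (Sscrofa11.1, Ensembl gene models) and deposited raw counts per gene and pig. RSEM with STAR and also Bowtie 2 are named for this step, and which of them gave the whole-number counts is not given in the sources used here. Per the labels, CASAVA 1.8.2, FastQC, STAR, RSEM and DESeq2 were used. A deposited comparison of the groups (means, ratios, p-values) was used only for gene symbols and positions, which are the other deposited values read. Of its 10892 genes 9550 had a symbol, and 96.2% of 8982 such symbols were the same in a gene table, which named 5875 further genes, and 326 more were named by position (1 match covering at least 50% of both spans).

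Groups were taken from a label whose values are low and high FCR but whose tag reads shear force, and the values were taken as the feed conversion groups. In R 4.3.3, edgeR 4.0.16 with TMM scaling and its expression filter tested 13621 genes (quasi-likelihood, Benjamini-Hochberg). Standard errors come from the F statistic. Depth was 6010629 to 11794256 counts, which limits precision together with a coefficient of variation of 0.249 between pigs. No libraries were near copies (chi-square per degree of freedom of 11.4 to 85.9 between pairs of a group). The p-values of the group comparisons set the group difference against the spread between these pigs. Correlations used 100000 permutations, or all permutations within groups, on log2(CPM + 1). Outliers were sought by Dixon's test.

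Alternatives were DESeq2 1.42.0, limma 3.58.1 voom with quality weights, RLE, upper-quartile and total scaling, other filters, a replicate block, the length slope as covariate, a pseudocount of 0.1, centring on group means and each pig left out. Leaving out the 3 pigs with the lowest slope was chosen after seeing the data. Tests were tested on simulated data. Python 3.11.15, numpy 2.4.6, pandas 2.3.3, scipy 1.17.1 and matplotlib 3.10.9 did the rest.

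The members and the lists (6 pathway lists and 12 marker lists) were chosen with earlier results of these data known. Full values are given for HSPA5, HSP90B1, CALR, CANX, P4HB, SEC61A1, SEC61B, SEC61G, SSR4, RPN1, DDOST and DAD1, for members with an unadjusted p of at most 0.05 and for the 3 with the smallest p in each direction. Of other pathway genes those at that p are named, with XBP1, ATF6, ATF4, DDIT3 and EIF2AK3, and others were named after their values were seen.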

Additional observations from a re-analysis of the deposited data

Results flagged for a closer look

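In 102 groups of 8 pigs (the members, the genes from the gene table and the named pathway genes, in each group), 5 had 1 pig whose distance to its nearest neighbour took more of the range of its group, on log2(CPM + 1), than the critical value of Dixon's test allows. Chance flags about 1 in 20 such groups. HFC replicate 5 was this pig at 4 of the 5 genes. It had 203 CPM of HYOU1, where the next HFC pig had 339 and the median was 418, and 29.3 CPM of SYVN1, where the next had 50.8 and the median was 58.5. At DDIT3 it was the highest with 62.9 CPM, against 37.1 for the next and a median of 36.3, and at SRP9 the highest with 23.5 CPM, against 16.3 and a median of 15.5. The fifth was DERL3 in HFC replicate 2, with 19.8 CPM against 10.4 for the next and a median of 9.25. The cause was not tested at any of these genes.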

How the results depend on the processing

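No member passed the adjusted threshold with any alternative. Members at an unadjusted p of at most 0.05, 4 in the report, were 7 with DESeq2, 10 with limma voom, 1 with the length slope as covariate and 3 to 19 with each pig left out (19 without HFC replicate 5, 9 without LFC replicate 8, 8 without LFC replicate 3, 7 without HFC replicate 6). Other pathway genes at this p, 6 in the report, were 16 with limma voom, 15 without the 3 pigs of lowest slope and 4 to 29 with each pig left out (29 without HFC replicate 5, 11 without LFC replicate 2). Of all genes tested, 11.4% were at this p in the report and 7.23% to 25.7% with each pig left out (25.7% without HFC replicate 5). With DESeq2, over 18963 genes without an expression filter, 6.1% were that far toward the HFC group and 3.88% toward the LFC group. With the covariate it was 2.74% and 2.06%. Without the 3 pigs 1056 and 915 of 13732 genes were. For limma voom and the replicate block such shares are not given here, so a shift over all genes cannot be told apart. With the replicate block 7 members were at this p, but the numbers did not pair the pigs, since correlations of same-numbered deviations ran from -0.297 to 0.352 and 0 of 8 pigs matched their own number best. The correlation of HSPA5 and PRL lost significance with total scaling (r of 0.457), with centring on group means (0.330) and without any of 11 pigs (range over all pigs 0.513 to 0.648), and the correlation of HSPA5 and SEC61B gained it with total scaling (-0.769). With the length slope as covariate the log2 fold changes of SEC61B, SSR4, DAD1 and ATF6 turned to 0.052, 0.11, 0.078 and -0.062, and without the 3 pigs that of DAD1 was 0.0046. EIF2AK3 (-0.0039) changed sign with DESeq2 (0.0019), limma voom (0.022), RLE (4.0e-05) and total scaling (0.011), at least 10 counts in every pig (0.015) or in 8 or more (0.017), and without the 3 pigs (0.028). With each pig left out it ran from -0.024 to 0.053 and SEC61G from -0.024 to 0.084. Of the members without full values, whose values were compared only for some alternatives, SRP14, SSR2, SSR3, DNAJC3, DNAJC10 and SRP54 also turned with the covariate. The other members and pathway genes with full values kept their direction under each alternative run. The cause was not tested.

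Members had at least 149 counts in each pig, so depth was less of a limit than the spread between pigs. Of the 35 members 11 overlap another gene model, and with no strand their counts may hold reads of a neighbour.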

Other observations

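For 6 of the 40 genes the span of the deposited gene model differed by more than 1.5 times from that of the RefSeq gene of the same name and assembly. HSPA5 spanned 17956 bases in the deposited model and 4916 bases in RefSeq, RPN1 50465 and 16173, SPCS3 30417 and 12037, SRP9 55354 and 12269, HSP90B1 7861 and 19504, and SSR3 26774 and 40409. The length slope uses the deposited spans, and its values with RefSeq spans were not computed.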
